A study of Mus musculus with 4 samples.

Results

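Dividing blood endothelial cells were examined in the ears of neonatal mice. They numbered 328 of 3750 kept cells and of 2393 cells in the blood endothelial gate, with 128 in library 1 and 200 in library 2. A cell was taken as dividing with at least 3 UMIs (unique molecular identifiers, which count captured transcripts) of Mki67 and Top2a together. It also had at least 1 UMI of the endothelial cadherin gene Cdh5, none of the lymphatic genes Prox1, Mmrn1 and Reln, and under 5 of the pericyte genes Pdgfrb, Kcnj8 and Ndufa4l2. Barcodes needed at least 500 detected genes and at most 10% mitochondrial UMIs. Cells of the same gate with no UMI of Mki67 or Top2a served as non-dividing cells (819 and 1012), and 234 cells with 1 or 2 such UMIs were kept apart as a separate group. The members were thus chosen by the measured UMIs of Mki67 and Top2a and the other gate genes, and none of these 9 genes was tested.

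Mki67 encodes a nuclear protein that coats the chromosomes of cycling cells and is lost in quiescent ones, and Top2a encodes the topoisomerase that untangles sister chromatids. A growing vascular bed lengthens by sprouting, in which leading tip cells migrate while endothelial cells behind them, in capillaries and veins, divide. Endothelial cells of arteries divide little, and Notch signalling and connexin 37 (Gja4) are known to hold them in cell cycle arrest.

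Ears of C57BL/6 mice at postnatal day 8 gave 2 libraries, which the labels call biological replicates. All cells had been enriched for CD31, stained with tagged antibodies, and sorted alive as positive for CD31 and for the red reporter written as Rtom, which is switched on by the inducible Cdh5CreERT2 recombinase, so cells without Cdh5-driven recombination would be missing. The sources used here do not give the number of animals in a library, no treatment is named, and every comparison sets cell groups of the same libraries against each other. Samples of adult and of wounded adult ears are not analysed here.

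In total, 15989249 UMIs over 1745 barcodes were counted in library 1 and 26675353 over 2877 barcodes in library 2. Dividing cells were deeper, with medians of 13314 and 13345 UMIs per cell against 7261 and 7382 in non-dividing cells, 1.83 and 1.81 times as many. They also had more detected genes, 3968 and 3911 against 2718 and 2632, but 1893 and 1864 against 1853 and 1776 once each cell was thinned to 4000 UMIs. The sum of Mki67 and Top2a UMIs in dividing cells had medians of 13.5 and 11 and reached 53 and 77. Just inside the threshold, 13 and 26 cells had exactly 3 such UMIs, and just outside it 19 and 32 cells had 2. Cells with both Xist and Y-linked UMIs mark droplets holding cells of both sexes. With all cells thinned to 4000 UMIs, they made up 1.60% and 1.01% of dividing cells against 0.265% and 0.442% of non-dividing cells. These shares rest on 2 and 2 dividing and on 2 and 4 non-dividing cells. Their exact binomial intervals, for counting error only, were 0.194% to 5.66% and 0.122% to 3.58% in dividing cells. In non-dividing cells they were 0.0321% to 0.955% and 0.120% to 1.13%. The intervals of both groups overlap in each library, so a difference is not resolved.

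The dividing cells carried markers of blood endothelium. Sort and gate had already selected for CD31 and Cdh5 and against lymphatic genes, so these values are no separate test of the label. Pecam1, which encodes CD31, had a UMI in 96.0% and 97.99% of the thinned dividing cells, and Esam, an endothelial adhesion gene, in 94.4% and 95.5%. The lymphatic chemokine gene Ccl21a, which the gate did not use, had a UMI in 2.40% and 3.02% of them against 76.9% and 95.8% of non-dividing lymphatic cells. Markers of other cells differed between groups. The 11 pericyte markers summed to 12.8 and 19.7 CPM (UMIs scaled to a common library size) in dividing cells against 63.9 and 24.7 in non-dividing cells. Gate genes such as Pdgfrb are among them, and the gate capped their UMIs in every cell. The same cap is a smaller share of a deeper cell, so part of this difference can come from the gate. The 11 immune markers summed to 12.3 and 9.99 CPM in dividing cells against 73.1 and 27.4 in non-dividing cells. The immune gene Ptprc was at 0 in dividing cells of both libraries. Keratinocyte markers summed to 114 and 14.8 CPM against 15.9 and 15.6, so library 1 alone had more of them in dividing cells. Smooth muscle markers summed to 120 and 192 against 271 and 174. Erythroid markers, mainly haemoglobin genes, were the most abundant of these lists, at 526 and 1831 against 1555 and 1725. The part of such cells in the results was not tested.

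In library 1, 12.5% of blood-gate cells were dividing, and in library 2 14.6% were, a mean of 13.6% ± 1.49 (SD, n = 2). The exact 95% binomial intervals (Clopper-Pearson) run from 10.5% to 14.7% and from 12.8% to 16.6% and overlap. These and all later intervals cover counting error only. In lymphatic cells of the same libraries, gated by at least 3 UMIs of Prox1, Mmrn1 and Reln together, the same threshold gave 13.4% (9.74% to 17.9%) and 16.1% (13.2% to 19.3%). The intervals of both lineages overlap in each library. The share depends on depth. With every cell first thinned to 4000 UMIs it was 8.36% (6.69% to 10.3%) and 8.78% (7.30% to 10.4%) in blood cells. In lymphatic cells it was then 5.71% (2.99% to 9.77%) and 8.20% (5.84% to 11.1%). Blood, lower before, was thus the higher in both libraries. These intervals also overlap in each library, so the order of the lineages is not resolved with or without thinning.

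The dividing cells covered both S phase, when DNA is copied, and mitosis, as a measure of their spread along the cycle. Summed over 41 replication and nucleotide genes, thinned dividing cells had medians of 15 and 13 UMIs, and over 69 mitosis and spindle genes 35 and 31 UMIs. Both medians were 2 UMIs in non-dividing cells of both libraries. S-phase UMIs exceeded mitosis UMIs in 22.4% (15.4% to 30.7%) and 27.6% (21.6% to 34.4%) of dividing cells, and mitosis UMIs were the more numerous in 76.8% and 69.8%. The dividing group is thus mostly of cells with more mitosis than S-phase transcripts, in both libraries. Without thinning the S-phase share was 21.1% and 27.5%. The lists hold different numbers of genes, and the cells were themselves chosen by their Mki67 and Top2a UMIs. So the balance describes these lists and this gate and is not a measured length of a phase.

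The gate did not take all cycling cells. Among non-dividing cells, which have no Mki67 or Top2a UMI, 2.52% (1.52% to 3.91%) and 5.30% (3.93% to 6.96%) had 10 or more S-phase UMIs after thinning, against 61.6% and 62.3% of dividing cells. With 10 or more mitosis UMIs, the non-dividing shares were 0.531% and 0.662%, against 88.0% and 83.9%. In the cells with 1 or 2 UMIs, 19.7% and 25.2% passed the same S-phase level, which lies between the other groups in both libraries.

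**Figure D1:**
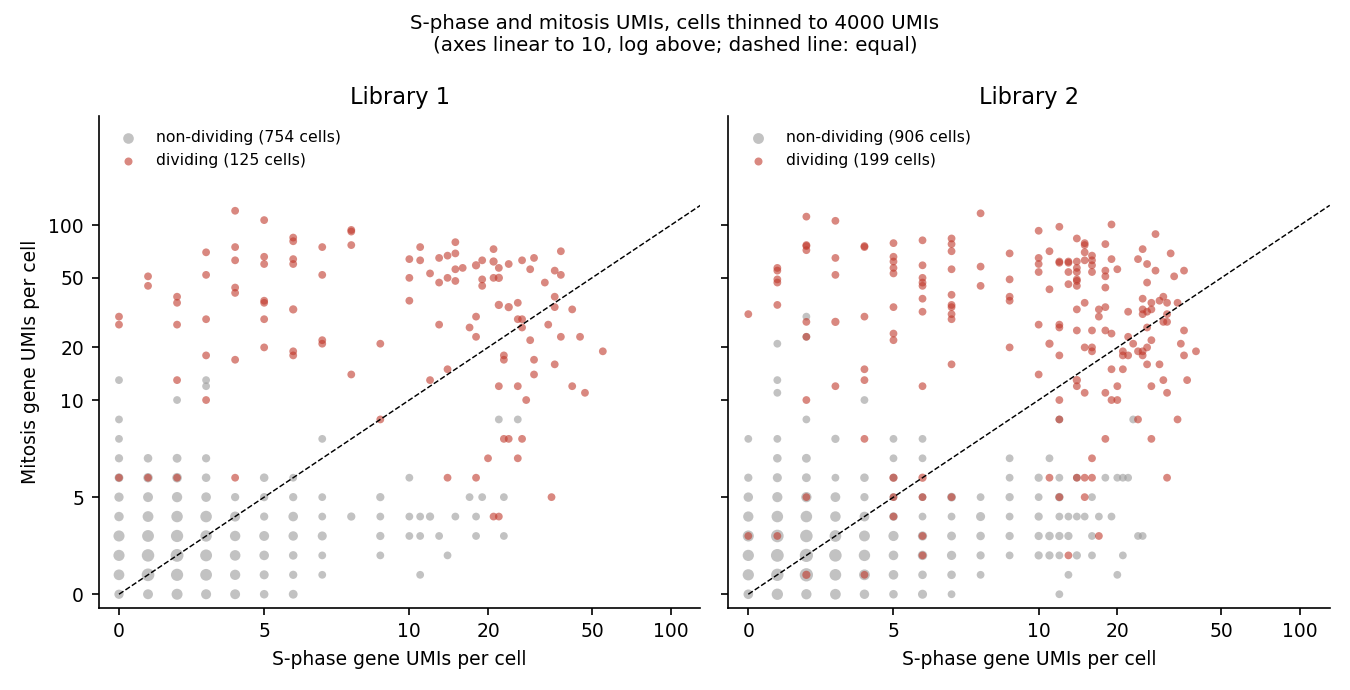
S-phase gene UMIs (x) against mitosis gene UMIs (y) in single blood-gate cells thinned to 4000 UMIs, by library, with larger dots for more cells at the same values and axes that are linear to 10 and logarithmic above. Dividing cells (red) spread from high mitosis with few S-phase UMIs to high S-phase with few mitosis UMIs, while most non-dividing cells (grey) lie near the medians of 2 and 2.

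The summed UMIs of the 3 groups were compared in both libraries with edgeR's quasi-likelihood test. Of 10486 genes tested, 35.3% passed an adjusted p (Benjamini-Hochberg) of 0.05, with 1848 genes higher (17.6%) and 1855 lower (17.7%) in dividing cells. DESeq2 called 921 higher and 417 lower, and 1263 and 826 were called without the library as a block. Against non-dividing cells matched on total UMIs 1343 and 1235 of 9946 genes were called. Among cells without a UMI of Cxcl12, Ackr1, Selp and Mgp 1297 and 869 of 9128 were. List counts given below for these settings stand beside these smaller totals. The median log2 change of all tested genes was -0.05. In such sums, fewer cells with a gene and less of its RNA per cell cannot be told apart. Genes of the cell cycle rise and fall with the markers that chose the cells, so their counts below describe the group and are read as no more than that. The 219 genes of the 8 cell cycle lists took 4.08% and 3.57% of the UMIs of dividing cells, against 0.780% and 0.779% in non-dividing cells.

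Among genes that copy DNA, all 38 replication genes tested were higher, with a median log2 change of 2.67. Mcm3, a subunit of the replicative helicase, was at 143 and 137 CPM in dividing cells of libraries 1 and 2 against 30.1 and 40.5 in non-dividing cells. Gmnn, which keeps origins from firing again, was at 175 and 140 against 12.9 and 15.2. Of 18 nucleotide synthesis genes, 17 were higher, with a median of 1.67. Rrm2, the small subunit of the ribonucleotide reductase that makes the building blocks of DNA, was at 275 and 215 against 2.83 and 3.28 CPM. Tk1, the thymidine kinase of S phase, was at 286 and 204 against 4.24 and 3.63. The purine enzyme gene Impdh2 moved least among the 5 members highest in dividing cells, from 105 and 113 to 199 and 185.

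Of 29 genes of cyclins, their kinases and entry factors, 25 were higher and 2 lower, with a median log2 change of 3.38. Cdk1, the kinase that drives entry into mitosis, was at 488 and 433 CPM against 14.7 and 20.4, and in 72.8% and 71.4% of the thinned dividing cells against 6.10% and 6.18% of the non-dividing cells. Its partner Ccnb1 was at 160 and 139 against 1.84 and 2.23. The D-type cyclin of endothelium that reads growth signals, Ccnd1, differed far less, 597 and 652 against 461 and 549 (log2 change 0.31 ± 0.08, SE). The 2 lower members, named after their values were seen, were the D-type cyclin Ccnd2, at 44.3 and 56.6 against 171 and 153, and the G1 kinase Cdk6, at 8.66 and 13.4 against 24.3 and 19.9. Both lie outside the range of the other group in each library, in the direction opposite to the rest of the list.

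Mitosis genes had the largest shifts. In the mitosis and kinetochore list 43 of 44 were higher, with a median log2 change of 5.58, and among spindle motor and cytokinesis genes 26 of 26, with a median of 5.76. Ube2c, which tags mitotic cyclins for destruction, was at 557 and 509 CPM against 4.24 and 5.27. Cenpf of the kinetochore was at 421 and 343 against 4.38 and 4.69. Prc1, which bundles the central spindle, was at 299 and 254 against 2.68 and 2.34. The tubulin genes were high in both groups and differed less, with Tuba1b at 1184 and 846 against 164 and 158. The member that did not pass was Pttg1, the securin gene, at 50.4 and 53.0 against 52.8 and 53.1; it was named after its values were seen.

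Chromatin and repair genes followed. All 31 condensin, cohesin and chromatin genes were higher (median 2.20), with Hmgb2, a chromatin protein gene, at 2196 and 2202 CPM against 172 and 217. Of 13 replication-dependent histone genes 12 were higher (median 3.88), with the linker histone gene Hist1h1b at 458 and 289 against 1.84 and 1.29. Most transcripts of this class lack a poly(A) tail, and libraries primed on that tail may catch only some of them, so their levels here are those of captured transcripts. All 20 homologous recombination and Fanconi repair genes were higher (median 3.71).

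The promoters of 4 of these genes show the sequence elements for which cell cycle promoters are known: the CHR, which is bound by a repressor complex in resting cells, E2F sites, and the CCAAT box bound by NF-Y. The motifs searched on both strands were TTTGAA for the CHR, TTGGCGC or its variants TTCGCGC and also TTGCCGC and likewise TTCCCGC for E2F, and the box CCAAT itself. Capitals mark every match. The windows, from RefSeq on GRCm38.p6, are each 170 bases at the annotated start of the gene and read 5′ to 3′ on its strand: chr10:69352913-69353082 (minus) for Cdk1, chr4:118437344-118437513 (minus) for Cdc20, chr2:164769759-164769928 (plus) for Ube2c and chr8:75109339-75109508 (plus) for Mcm5. Cdk1, Cdc20 and Ube2c stand for mitosis genes and the helicase gene Mcm5 for replication genes; Cdc20 and Mcm5 were chosen after their values were seen.
Cdk1: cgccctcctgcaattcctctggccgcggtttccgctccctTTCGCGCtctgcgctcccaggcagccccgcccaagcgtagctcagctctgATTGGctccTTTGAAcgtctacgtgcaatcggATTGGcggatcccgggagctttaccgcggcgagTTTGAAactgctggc
Cdc20: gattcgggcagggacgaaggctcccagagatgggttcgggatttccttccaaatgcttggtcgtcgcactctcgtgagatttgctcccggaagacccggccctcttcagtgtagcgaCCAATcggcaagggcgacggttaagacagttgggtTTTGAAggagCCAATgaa
Ube2c: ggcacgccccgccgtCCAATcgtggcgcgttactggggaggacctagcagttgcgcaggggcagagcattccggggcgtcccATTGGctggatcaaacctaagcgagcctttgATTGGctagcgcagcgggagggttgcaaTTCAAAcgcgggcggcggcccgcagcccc
Mcm5: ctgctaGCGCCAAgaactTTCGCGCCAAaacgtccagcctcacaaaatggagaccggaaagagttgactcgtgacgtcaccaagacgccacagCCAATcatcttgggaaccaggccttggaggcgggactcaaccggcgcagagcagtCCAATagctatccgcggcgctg
The mitosis windows hold a CHR (2 in Cdk1, 1 each in Cdc20 and Ube2c) and CCAAT boxes (2, 2 and 3), the Cdk1 window also holds 1 E2F match, and the Mcm5 window holds 3 E2F matches, 2 of them overlapping, 2 CCAAT boxes and no CHR. The levels of these genes were those given above for Cdk1 and Ube2c. For Cdc20, the activator of mitotic exit, they were 255 and 271 CPM against 4.66 and 6.68, and for Mcm5 118 and 110 against 13.7 and 19.1.

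Over promoters of 300 bases (250 before and 50 after the start), a CHR stood in 18.1% of all 27025 promoters of the RefSeq table and in 11.8% of those matched to tested genes (80.4% of these genes matched). Among mitosis and kinetochore genes it stood in 60.5% (38 of 44 matched) and among spindle genes in 75% (24 of 26). For nucleotide synthesis genes it was 5.88% (17 of 18). E2F matches stood in 9.69% of all promoters, 18.6% of tested genes, 41.2% of nucleotide synthesis genes, 53.6% of condensin, cohesin and chromatin genes and 13.2% of mitosis genes. CCAAT boxes stood in 37.9% of all promoters, 39.3% of tested genes, 73.7% of mitosis genes and 90.9% of the histone genes (11 of 13 matched). These shares are descriptions with no test, and a match is a run of letters, not a shown binding site. For the replication, cyclin and repair lists fewer than 80% of genes matched a promoter, which voids the share for them.

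**Figure D2:**
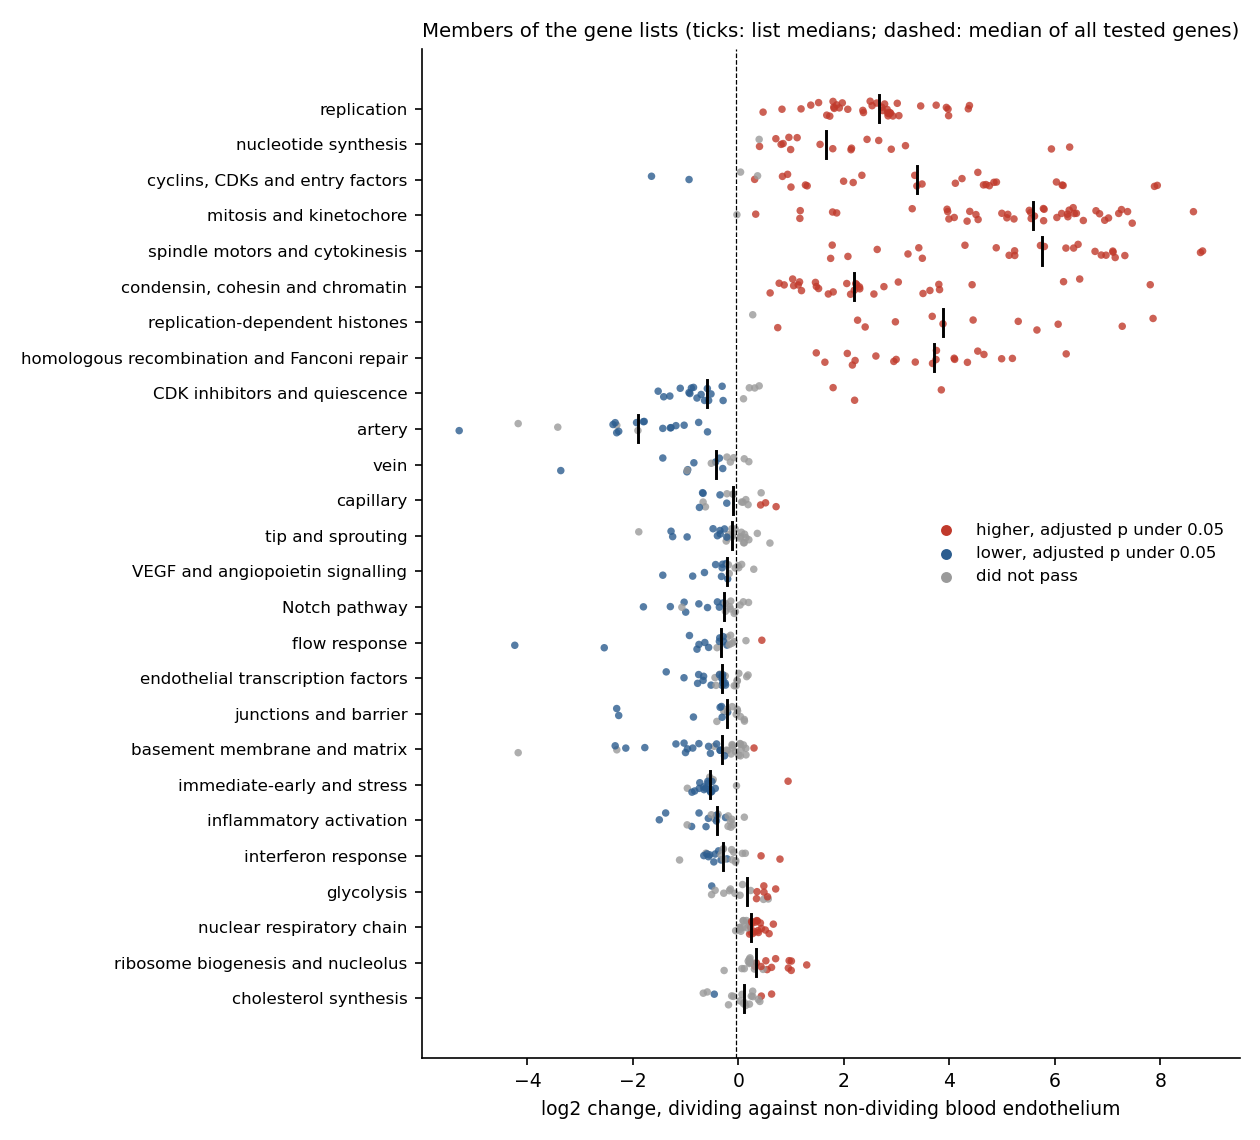
log2 change of each tested member (dots) of 26 gene lists between dividing and non-dividing blood endothelium, with list medians as ticks and the median of all tested genes as a dashed line. The 8 cell cycle lists lie to the right, with medians from 1.67 to 5.76, and the arterial list lies furthest to the left, at -1.90.

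The vessel types among the dividing cells were read from 4 markers: Cxcl12, a chemokine of arterial endothelium, Ackr1, a chemokine receptor of veins, Car4, a carbonic anhydrase of capillaries, and Esm1, a tip cell gene. Cells were thinned to 4000 UMIs, which left out 3 and 1 dividing and 65 and 106 non-dividing cells. Cxcl12 had a UMI in 16.8% and 17.6% of dividing cells against 35.9% and 32.9% of non-dividing cells. Ackr1 had one in 1.60% and 1.01% against 8.36% and 4.64%. Carriers of both genes were less common among dividing cells in each library. Car4 had a UMI in 1.60% of dividing cells of library 1 and in none of 199 in library 2, which allows a share of up to 1.51% (3 counts), against 2.92% and 1.32%. Esm1 was at 14.4% and 18.6% against 15.4% and 19.2%, within the intervals of both groups. None of the 4 genes had a UMI in 68.0% and 64.8% of dividing cells against 45.4% and 49.2% of non-dividing cells. In non-dividing lymphatic cells, where these genes should be low, the shares were 1.26% and 2.34% for Cxcl12, 0.420% and 0.467% for Ackr1, 0 for Car4 and 1.26% and 0.701% for Esm1, so the Ackr1 and Car4 shares of dividing cells lie near that background.

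Seen from the markers, 6.80% (4.26% to 10.2%) and 9.62% (6.79% to 13.1%) of Cxcl12 carriers were dividing, against 17.97% (14.6% to 21.7%) and 19.2% (16.3% to 22.4%) of cells with none of the 4 genes. With the markers thinned, the intervals did not overlap in either library. Of Ackr1 carriers, 2 of 71 and 2 of 46 were dividing, 2.82% and 4.35%. Of Car4 carriers, 2 of 27 and 0 of 15 were, and the latter allows a share of up to 20% (3 counts). Of Esm1 carriers 12.8% (7.74% to 19.4%) and 15.4% (11.05% to 20.5%) were dividing, and of those with Esm1 and none of the other 3 genes 17.9% (10.4% to 27.7%) and 20.1% (14.3% to 27.1%). Only the markers were thinned here, while the dividing call used all UMIs of a cell. Cxcl12 carriers had medians of 7151 and 7308 UMIs against 9188 and 9613 in cells with none, and the part of depth was not tested. Over all blood-gate cells with at least 4000 UMIs the share of dividing cells was 13.1% and 15.8%. Without thinning it was 8.19% and 11.8% for Cxcl12, 8% and 5.17% for Ackr1, 16.3% and 18.5% for Car4, 15.3% and 18.8% for Esm1, and 16.5% and 15.6% for cells with none. Unthinned, the intervals of Cxcl12 carriers and of cells with none overlapped in library 2 (9.19% to 14.9% against 12.6% to 18.8%). The order of Cxcl12 below Esm1 held with and without thinning in both libraries, while Car4 changed its place with the depth. Free RNA was not removed from any of these values.

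**Figure D3:**
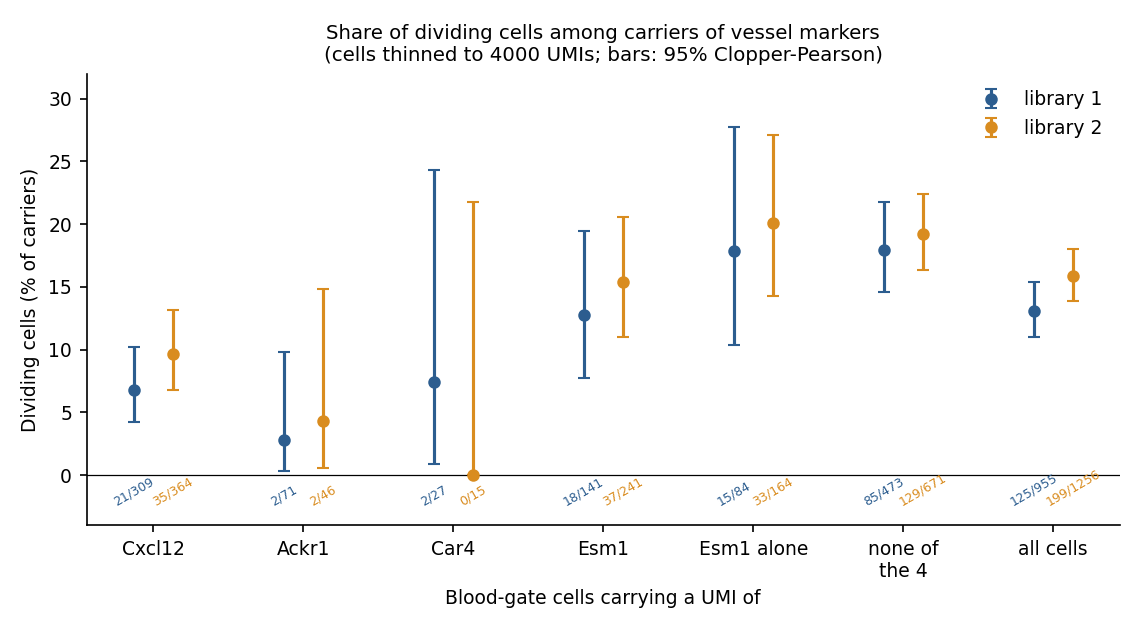
Percent of dividing cells (y, with 95% Clopper-Pearson intervals) among blood-gate cells that carry a UMI of each vessel marker (x). Markers were thinned to 4000 UMIs and the dividing call used all UMIs, with dividing and all carriers written under each point. Cxcl12 and Ackr1 carriers lie at 2.82% to 9.62%, and cells with none of the 4 markers at 17.97% and 19.2%.

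Arterial genes were lower as a group. Of 19 tested, 15 were lower and none higher in dividing cells, with a median log2 change of -1.90, beside 17.7% lower and a median of -0.05 over all genes. Gja4, the connexin 37 gene, was at 45.9 and 35.0 CPM in dividing cells against 259 and 152 (log2 change -2.31 ± 0.12, adjusted p = 1.06e-14), and had a UMI in 9.60% and 6.53% of thinned dividing cells against 31.6% and 23.1%. Fbln5, an elastic fibre gene, was at 106 and 51.4 against 481 and 290 (-2.33 ± 0.10). Hey1, a Notch target that acts in arterial fate, was at 13.8 and 18.7 against 64.6 and 53.2 (-1.80 ± 0.17). Sema3g, an arterial semaphorin gene, was at 21.9 and 12.4 against 62.9 and 51.6 (-1.78 ± 0.16). Every dividing value lay below every non-dividing value for these 4 genes. Cxcl12 was at 95.3 and 144 against 554 and 360, which did not pass (-1.90 ± 0.50, adjusted p = 0.118). Its call depends on the setting. Cxcl12 passed by DESeq2 (-1.95, adjusted p = 0.00174) and without the library as a block (-1.92, 0.0417). It did not pass against matched cells (-1.29, 0.219) or with thinned cells (-1.32, 0.276).

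Venous genes were lower in part. Of 15 venous genes 8 were lower and none higher, with a median of -0.43. Ackr1 was at 8.66 and 1.31 CPM, or 17 and 4 UMIs, against 71.6 and 25.1 (-3.37 ± 0.24). Vwf, the clotting factor gene, was at 79.5 and 59.2 against 233 and 148 (-1.43 ± 0.19), and Procr, the protein C receptor gene, at 61.6 and 36.7 against 95.6 and 76.1 (-0.84 ± 0.12). The venous count was 2 without the library as a block, 4 by DESeq2 and 5 against cells matched on UMIs, and Procr did not pass among cells without the 4 vessel genes used below (-0.28, adjusted p = 0.348). Of 18 capillary genes 3 were higher (16.7%, beside 17.6% of all genes) and 5 lower (27.8%, beside 17.7%), with a median of -0.10, and without the block 1 was higher and 1 lower. Rbp7, a retinol-binding protein gene, rose from 674 and 625 to 957 and 901 (0.52 ± 0.08, adjusted p = 9.61e-06). Lrat, which stores retinol, was at 139 and 161 against 109 and 114 (0.42 ± 0.09), but at 0.13 (adjusted p = 0.502) among cells without the 4 vessel genes, and it passed neither without the block (0.0549) nor with thinned cells (log2 change 0.0005). Timp4, a protease inhibitor gene, was at 16.8 and 25.5 against 30.8 and 41.1 (-0.74 ± 0.18), and at 0.046 against matched cells. Car4 was at 11.2 and 2.29 against 15.5 and 5.04 and did not pass (adjusted p = 0.0816).

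Several of these calls depend on the settings. Without the library as a block the log2 changes stayed close, at -2.32 for Fbln5, -3.48 for Ackr1 and -1.47 for Vwf, but the adjusted p was 0.115, 0.166 and 0.216, while Gja4 (0.00484) and Hey1 (3.06e-05) passed. Against non-dividing cells matched to the dividing cells on total UMIs, Gja4 fell by 1.81 and Fbln5 by 1.69, Vwf did not pass (adjusted p = 0.0911), and 12 of 19 arterial genes were lower. Among cells without a UMI of Cxcl12, Ackr1, Selp and Mgp, a setting added after the data were seen, Gja4 fell by 1.49, Fbln5 by 1.43 and Hey1 by 1.30, and 9 of 12 arterial genes that could still be tested were lower. So the direction held for Gja4, Fbln5 and Hey1 with cells that had a detected UMI of these 4 genes left out. Non-dividing cells were shallower, at medians of 7261 and 7382 UMIs against 13314 and 13345. Arterial or venous cells with no detected UMI may thus remain among them, and the part of vessel type in these values was not tested.

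**Figure D4:**
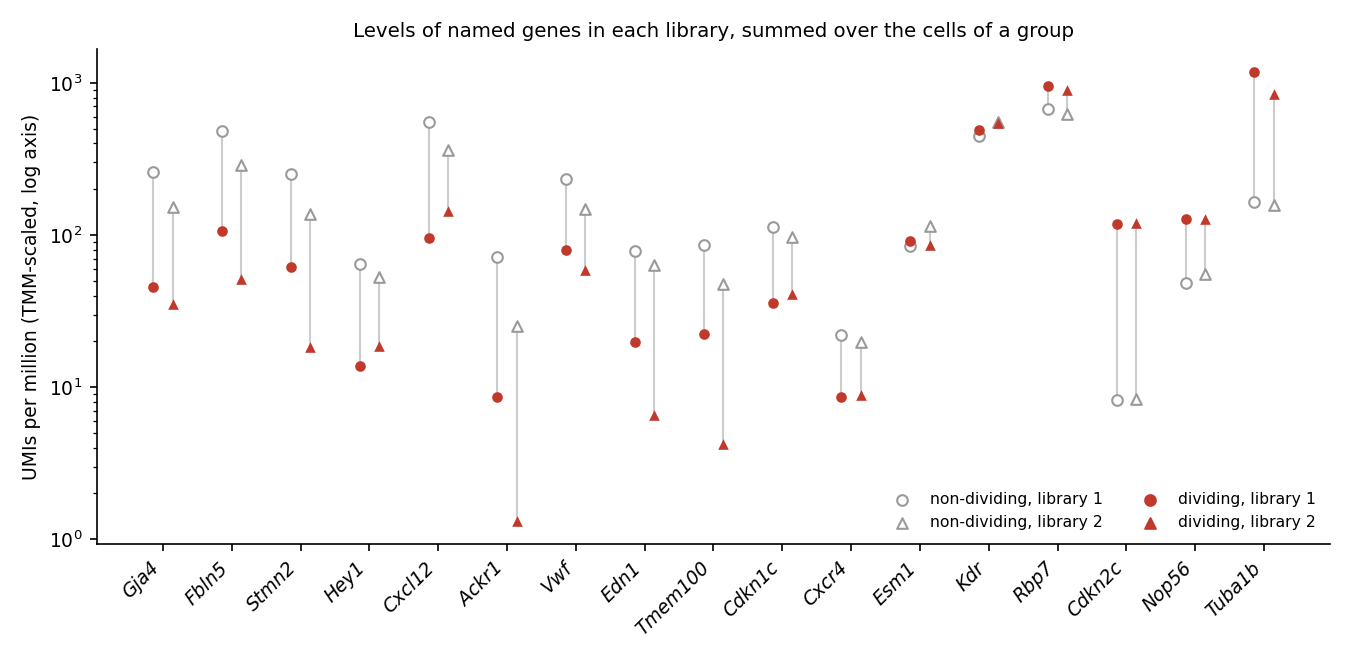
Level of 17 genes in CPM (log axis, TMM-scaled, summed over the cells of a group), with open symbols for non-dividing and red symbols for dividing cells, circles for library 1 and triangles for library 2. Gja4, Fbln5, Hey1, Ackr1, Edn1 and Cdkn1c lie lower in dividing cells of both libraries, Kdr and Esm1 overlap, and Cdkn2c, Nop56 and Tuba1b lie higher.

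Signals for sprouting and vessel fate were examined next. Of 27 tip and sprouting genes 9 were lower and none higher (median -0.12), and of 16 genes of VEGF and angiopoietin signalling 9 were lower and none higher (median -0.22). Without the block 3 and 2 of them were lower, and by DESeq2 3 and 3. Kdr, the main VEGF receptor, was at 492 and 546 CPM against 445 and 553 (0.06 ± 0.08, adjusted p = 0.597), which did not pass. Esm1, at 90.7 and 86.4 against 84.1 and 115, did not pass either (-0.19), but among cells without the 4 vessel genes it was lower (-0.39, adjusted p = 0.041). Vegfc, the ligand of lymphatic growth that arterial cells also make, was at 37.2 and 19.97 against 100 and 53.9 (-1.43 ± 0.13), but it was at 0.05 (adjusted p = 0.942) among cells without the 4 vessel genes. Ptprb, a phosphatase that dampens the angiopoietin receptor, was at 269 and 235 against 521 and 404 (-0.87 ± 0.08). Igfbp3, which binds insulin-like growth factors, was at 335 and 323 against 676 and 610 (-0.97 ± 0.15). Among cells without the 4 vessel genes neither passed (-0.29 and -0.45), and Igfbp3 did not against matched cells (adjusted p = 0.0713).

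In the Notch pathway 9 of 20 genes were lower and none higher, with a median of -0.27. The ligand gene Jag1 was at 32.6 and 18.3 CPM against 68.5 and 52.3 (-1.29 ± 0.15), and the ligand gene Dll1 at 16.3 and 10.1 against 40.1 and 15.6 (-0.998 ± 0.20). The receptor gene Notch4 was at 42.8 and 43.2 against 73.3 and 71.8 (-0.75 ± 0.12). The target Efnb2, the ephrin ligand of arteries, was at 49.4 and 60.9 against 107 and 118 (-1.03 ± 0.12). Each fell in both libraries. Without the block 5 of 20 were lower, and Dll1 did not pass (adjusted p = 0.352). Among cells without the 4 vessel genes 3 of 19 tested were lower: Dll1 was at -0.11 (0.846) and Jag1 at -0.75 (0.0732), which did not pass, while Notch4 (-0.61) and Efnb2 (-0.72) did.

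Brakes on the cell cycle moved both ways. Of 23 tested genes of CDK inhibition and quiescence 16 were lower and 3 higher, with a median of -0.59, and without the block 9 were lower and 3 higher. Cdkn1c, which encodes the inhibitor p57, was at 35.7 and 40.9 CPM against 112 and 96.3 (-1.41 ± 0.12, adjusted p = 1.48e-10), and the Myc antagonist Mxd4 at 94.8 and 126 against 276 and 270 (-1.30 ± 0.10). The 3 higher ones were the INK4 inhibitors Cdkn2c, at 118 and 120 against 8.19 and 8.32 (3.85 ± 0.13), and Cdkn2d, at 164 and 164 against 40.3 and 53.4 (1.80 ± 0.10), and the pocket protein gene Rbl1, at 33.1 and 37.0 against 8.19 and 7.15 (2.20 ± 0.19). The groups do not overlap for these 5 genes. Cdkn1c was already lower in cells with 1 or 2 UMIs of Mki67 and Top2a, at 48.4 and 50.7, whereas Cdkn2d stood there at 36.0 and 45.7, below the non-dividing value in each library.

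Genes that respond to flow and stress were lower in part. Of 20 flow response genes 12 were lower and 1 higher (median -0.32), but 5 were lower without the block, 6 by DESeq2, 6 of 19 against matched cells and 4 of 18 among cells without the 4 vessel genes. Lower calls over all genes were fewer in these settings too, at 826, 417, 1235 and 869 in the same order. Edn1, the vasoconstrictor endothelin 1, was at 19.9 and 6.55 CPM against 78.0 and 63.4 (-2.54 ± 0.22), and Klf4, a transcription factor raised by flow, at 210 and 342 against 442 and 498 (-0.78 ± 0.10). Edn1 also passed against matched cells (-1.97), and Klf4 did not (adjusted p = 0.101). Of 22 immediate-early and stress genes 17 were lower and 1 higher (median -0.55), with Jund at 516 and 833 against 901 and 1194 (-0.66 ± 0.08) and Jun at 1077 and 1780 against 1746 and 2254 (-0.52 ± 0.08). Both are AP-1 factor genes. Library 2 was higher than library 1 in both groups for Jund and Jun, and without the library as a block 1 of the 22 was lower. The higher one, named after its value was seen, was the chaperone gene Hsp90aa1, at 551 and 659 against 225 and 429.

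Inflammatory activation genes gave 9 of 21 lower and none higher (median -0.41). Nfkbia, the inhibitor that NF-kB induces, was at 613 and 1376 CPM against 1053 and 1802 (-0.57 ± 0.09), and the chemokine gene Cxcl16 at 14.3 and 6.87 against 39.3 and 16.5 (-1.38 ± 0.22). Library 2 was higher than library 1 in both groups for Nfkbia, and lower for Cxcl16. Without the block 1 of the 21 was lower, and by DESeq2 3. Of 24 interferon response genes 9 were lower and 2 higher (median -0.29), with 3 lower without the block and 1 by DESeq2. Psmb9, an immunoproteasome subunit gene, rose from 71.3 and 71.0 to 116 and 129 (0.79 ± 0.10, adjusted p = 1.95e-07), and the peptide transporter gene Tap1 was at 101 and 104 against 79.4 and 73.9 (0.43 ± 0.10). Ifitm3, an antiviral membrane protein gene, was at 2278 and 2195 against 2872 and 2745 (-0.33 ± 0.06). Psmb9 and Tap1 thus moved opposite to the other interferon genes that passed.

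Among genes of biosynthesis and energy some were higher. Of 24 genes of ribosome biogenesis and the nucleolus 12 were higher and none lower, with a median of 0.33. Nop56, a core protein of the particles that modify ribosomal RNA, was at 127 and 128 CPM against 48.3 and 55.2 (1.30 ± 0.10), and its partner Nop58 at 125 and 131 against 56.5 and 70.4 (1.003 ± 0.10). Of 30 nuclear genes of the respiratory chain 18 were higher and none lower (median 0.24), with Ndufa5 of complex I at 186 and 151 against 110 and 101 (0.66 ± 0.09). Against cells matched on UMIs 8 of 30 were higher, without the block 7 and by DESeq2 8. Of 18 glycolysis genes 6 were higher and 1 lower (median 0.16): Gapdh was at 1487 and 1262 against 971 and 985 (0.49 ± 0.07), and Aldoa, the lower one, at 275 and 212 against 352 and 332 (-0.50 ± 0.09). Of 19 cholesterol synthesis genes 2 were higher (10.5%, beside 17.6% of all genes) and 1 lower (5.26%, beside 17.7%), so both shares lie below the background.

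Genes of the vessel wall were lower in part. Of 34 genes of basement membrane and matrix 15 were lower and 1 higher (median -0.30), with the fibrillar collagen gene Col5a2 at 30.1 and 16.4 CPM against 101 and 57.1 (-1.77 ± 0.14). Col5a2 did not pass without the block (adjusted p = 0.123) and was at -0.22 (0.678) among cells without the 4 vessel genes. Col18a1, the source of endostatin, was at 175 and 158 against 346 and 320 (-1.002 ± 0.09). Without the block 6 of the 34 were lower. Of 17 junction and barrier genes 7 were lower and none higher (median -0.21), and 3 without the block. Cldn5, the claudin that seals endothelial tight junctions, was at 640 and 710 against 1207 and 1230 (-0.85 ± 0.07), and Pecam1 at 958 and 1138 against 1238 and 1351 (-0.31 ± 0.07). Of 27 endothelial transcription factor genes 16 were lower and none higher (median -0.31), with Sox17, an arterial factor gene, at 156 and 218 against 296 and 329 (-0.75 ± 0.10) and Epas1, which encodes the oxygen-regulated HIF-2 alpha, at 172 and 229 against 336 and 348 (-0.77 ± 0.09). Cldn5 and Epas1 passed without the block and Sox17 did not (adjusted p = 0.117), and 4 of the 27 did in all (5 by DESeq2).

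Among genes outside the cell cycle lists with an average log2 level of at least 5, the 10 largest falls also held genes not yet described. Stmn2, a tubulin regulator gene, was at 61.6 and 18.3 CPM against 252 and 138 (-2.38 ± 0.29), and Tmem100, a target of ALK1 signalling, at 22.4 and 4.25 against 86.3 and 47.3 (-2.46 ± 0.24). Neither passed against matched cells (adjusted p = 0.0768 and 0.0836) or without the block (0.136 and 0.146). Egfl8, a secreted EGF-like protein gene, was at 22.9 and 15.4 against 103 and 73.2 (-2.21 ± 0.15) and passed in both settings. Htra1, Clu and Ctsh fell by 1.93, 1.86 and 1.97 and did not pass without the block (adjusted p = 0.206, 0.0865 and 0.443). The largest rises by the same rule were Pbk, a mitotic kinase gene, at 162 and 138 against 0.424 and 0.586, or 3 and 5 UMIs, and Pimreg at 181 and 146 against 1.13 and 1.64. Next came Knstrn of the kinetochore (4.79), Cdkn2c, Hirip3 (2.91), the activator of replication origins Dbf4 (2.74), Pmf1 of the kinetochore (2.73), Nrm (2.68), Ccdc34 (2.57) and Atad2 (2.46).

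Surface proteins were read from oligonucleotide-tagged antibodies in the same cells, a readout that the gate did not use. Each antibody is known by a tag of 15 bases, shown in lower case for the 5 targets and 2 isotype controls.
ICAM1: ataaccgacacagtg
VCAM1: cgttcctacctacct
CXCR4: gtcgtggtgttgttc
VEGFR2: ataagagcccaccat
CD45: tggctatggagcaga
Rat IgG2a: aagtcaggttcgttt
Rat IgG2b: gattcttgacgacct
Tags were found for 126 and 200 dividing and 806 and 991 non-dividing cells. VEGFR2, the protein of Kdr, was at 5.37 and 5.57 tag counts per dividing cell against 2.95 and 3.64 per non-dividing cell, 1.82 and 1.53 times as many. CXCR4, the receptor of the Cxcl12 chemokine, was at 16.1 and 17.7 against 25.9 and 26.003, or 0.624 and 0.682 times. ICAM1, an adhesion receptor for leukocytes, was at 181 and 196 against 146 and 173. CD45, the leukocyte antigen, was at 2.61 and 4.15 against 6.93 and 4.44. For these 4 proteins the groups did not overlap, and each gave an exact permutation p of 0.333 (two-sided), the smallest that 2 libraries against 2 allow. VCAM1, another adhesion receptor, was at 1.90 and 2.92 against 2.40 and 2.37, and its groups overlapped. The isotype controls were at 1.37 and 2.27 against 1.18 and 2.01 (rat IgG2a) and 0.246 and 0.435 against 0.234 and 0.359 (rat IgG2b), so VCAM1 lay close to the IgG2a control.

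The dividing cells also had more mRNA UMIs, and the tags were compared at equal mRNA UMIs. Against non-dividing cells matched on mRNA UMIs, VEGFR2 stood at 5.37 and 5.57 against 4.36 and 6.31, so the groups overlapped. CXCR4 stood at 16.1 and 17.7 against 36.4 and 39.7, further apart than before, and ICAM1 at 181 and 196 against 237 and 260, which turned its direction. The matched cells of library 1 carried more immune transcripts (230 against 12.3 CPM in dividing cells) and 30.2 CD45 tags per cell, and the part of those cells in the values was not tested. As a share of the counts of all 7 antibodies, CXCR4 was 7.73% and 7.75% in dividing against 13.9% and 12.3% in non-dividing cells, and VEGFR2 2.57% and 2.43% against 1.59% and 1.71%. In matched cells these shares were 11.6% and 12.4% for CXCR4, nearer to the dividing cells in library 1 and slightly further from them in library 2. For VEGFR2 they were 1.39% and 1.97%. Neither overlapped with the dividing cells. ICAM1, at 86.8% and 85.5% of the counts in dividing cells, was at 75.7% and 81.3% in matched cells, so by share it stayed higher. Of the 4 transcripts of tagged proteins that could be tested, Cxcr4 passed: it was at 8.66 and 8.84 CPM against 21.9 and 19.7 (-1.25 ± 0.26, adjusted p = 6.40e-04), whereas Kdr, Icam1 (-0.10) and Vcam1 (-0.51) did not pass. Cxcr4 did not pass by DESeq2 (adjusted p = 0.0669) or with the stricter cell filter (0.119). Ptprc, which encodes CD45, was too low to test, at 0 UMIs in dividing cells and 8 and 7 UMIs in non-dividing cells.

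**Figure D5:**
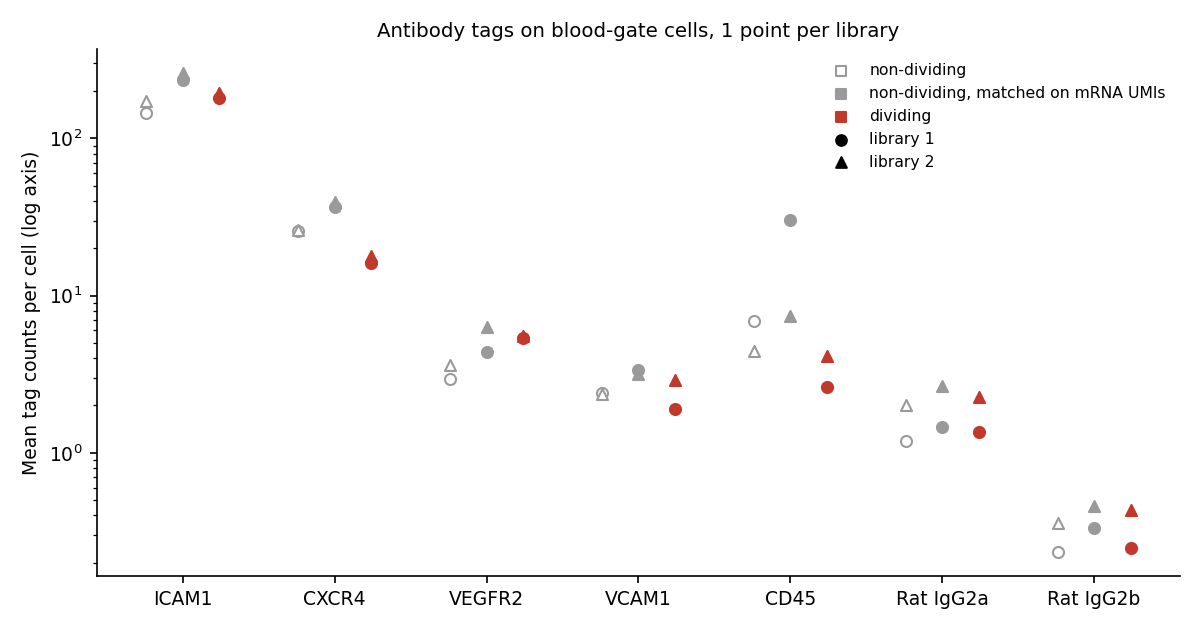
Mean tag counts per cell (log axis) for 5 antibodies and 2 isotype controls on blood-gate cells, with 1 point per library. CXCR4 lies lower in dividing cells (red) than in non-dividing cells (open) and in those matched on mRNA UMIs (grey), while VEGFR2 in dividing cells lies above all non-dividing cells and between the matched values.

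Dividing lymphatic cells (39 and 94) were the group most like the dividing blood cells, and the change between dividing and non-dividing cells was compared between both lineages by an interaction test. Of 10772 genes 55 passed, or 0.511%, with 27 changes more positive and 28 more negative in blood, and 9 of the 55 were in cell cycle lists. None of 44 mitosis and kinetochore, 18 nucleotide synthesis and 13 histone genes passed. Those that passed were 3 of 31 condensin, cohesin and chromatin genes, 2 of 29 cyclin and kinase genes and 2 of 26 spindle genes. With them came 1 of 38 replication genes and 1 of 19 repair genes. With 19 to 38 genes in the lists with a pass, 1 gene alone exceeds the 0.511% of all genes, so these counts cannot be set against that share. At an unadjusted p under 0.05, 611 genes were more positive and 334 more negative, and DESeq2 called 19 and 24. Dividing lymphatic cells also had a like balance of phases, with more S-phase than mitosis UMIs in 23.1% (11.1% to 39.3%) and 27.7% (18.9% to 37.8%) of cells. The genes with the largest differences are given with their values among the results for a closer look.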

How the data were processed

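Single-cell 3′ RNA and antibody tag counts of 2 libraries were used. The deposited matrices hold raw counts per barcode, and per the file headers they were written by software version 3.0.2. The submitters' processing notes name Cell Ranger, Seurat 3.0.2 and mm10. The sources used here do not say whether tag counts are UMIs or reads. The members, gene lists and tests were chosen with earlier results of these data known.

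Duplicate symbols (36) were summed. Scrublet called 17 of 3750 kept cells, which were kept; with under 0.5% called it is not a working doublet filter. Free RNA was not removed. The libraries shared 3 barcodes, none of a dividing cell. UMIs were summed by library and group, scaled by TMM and tested with edgeR 4.0.16 (R 4.3.3) quasi-likelihood tests with Benjamini-Hochberg adjustment, with the library as a block because both groups come from the same library; 2 residual degrees of freedom remained, and 5 in the joint fit with lymphatic cells. On data simulated for the blood comparison (10276 genes), 84% of 2-fold and 97% of 4-fold changes were found, and 7.65% of calls were false. In that simulation 100 genes were changed at each fold, and the libraries did not differ except in depth. The measured data had far more calls and a library effect, so these rates may not hold for them. Cells and markers were thinned with numpy 2.4.6, clustering was not used, and intervals came from scipy 1.17.1.

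Genes were named by rule: the division and vessel markers, the genes of tagged proteins, the 10 largest rises and falls outside cell cycle lists (average level 5 or more on the log2 CPM scale), and up to 5 members per list with the smallest adjusted p (for cell cycle lists, with the highest level). Other named genes are marked in the text. Alternatives were DESeq2 1.42.0, other filters, scaling, thresholds, depth matching, no block and leaving out each library.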

Additional observations from a re-analysis of the deposited data

Results flagged for a closer look

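For 10 genes the change between dividing and non-dividing cells differed between blood and lymphatic endothelium by edgeR's quasi-likelihood interaction test with Benjamini-Hochberg adjustment. Each difference below is the blood log2 change minus the lymphatic one, over 2 libraries. Ly6a, a surface antigen gene, had a difference of -2.33 (adjusted p = 5.57e-06): it was at 663 and 471 CPM in dividing blood cells against 869 and 623 in non-dividing ones, and in lymphatic cells at 43.0 and 38.1 against 11.9 and 9.63. Sorbs2, a cytoskeletal adaptor gene, had -2.00 (adjusted p = 4.51e-05), Tmem100 -2.10, Egfl8 -3.40 and Htra1 -4.48. Htra1 held 14 and 4 UMIs in dividing and 4 and 4 in non-dividing lymphatic cells, and Egfl8 2 and 7 against 3 and 7, so both rest on few counts.

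In the other direction Nsg1, an endosomal protein gene, had a difference of 2.66 (adjusted p = 8.46e-04), at 79.5 and 69.0 against 17.3 and 17.4 in blood and 225 and 184 against 396 and 231 in lymphatic cells. Fxyd6 had 1.84, Olfm1 1.66, Tbc1d4 1.58 and Nudt4 1.37. Without the library as a block 6 of the 10 genes did not pass, and with cells thinned to 4000 UMIs 7 did not.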

How the results depend on the processing

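Counts of genes moved with the settings. The 1848 higher genes became 921 by DESeq2 and 937 with cells thinned to 4000 UMIs. The 1855 lower genes became 417 by DESeq2, 717 when thinned, 1235 against matched cells, 1068 with gate and sums on separate parts of the UMIs, 1085 with the stricter cell filter and 869 without cells carrying the 4 vessel genes (a setting chosen after seeing the data). The library block pairs groups of the same library; without this replicate block 826 were lower, and 41 of 166 named genes no longer passed. Against matched cells 1304 of the 1848 higher and 1100 of the 1855 lower genes were called again. Among genes that had passed, the direction turned for Vegfc without the vessel genes (0.047), Timp4 against matched cells (0.046), and Mvk (-0.30) and Rgs5 (1.30) when thinned. Of genes that had not passed, Car4 (0.70) and Esm1 (0.16) turned against matched cells. The lymphatic difference gave 112 more positive and 81 more negative genes with no count filter, 3 and 3 without the block, and 6 and 2 when thinned. Leaving out a library leaves no residual degrees of freedom, so those values carry no test.

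The dividing share was 15.7% at 2 UMIs or more, 10.8% at 5 or more, 8.57% when thinned and 17.3% with the stricter filter. Among carriers it was 6.08% for Cxcl12 at 2000 UMIs. For Ackr1 it was 6.59% unthinned, 1.85% at 2000 UMIs and 1.09% with 2 UMIs of the gene. It was 17.4% for Car4 unthinned, and for Esm1 17.0% unthinned, 16.2% at 2000 UMIs and 12.2% with 2 UMIs. Tag ratios of dividing to non-dividing cells as shares of all tags were 1.07 for ICAM1, 0.909 for VCAM1 and 0.591 for CXCR4. By medians they were 1.41 for ICAM1, 0.818 for CXCR4, 2.0 for VEGFR2 and 1.0 for CD45. Against matched cells they were 0.758 for ICAM1, 0.736 for VCAM1, 0.445 for CXCR4, 1.02 for VEGFR2 and 0.180 for CD45. Without the vessel genes they were 0.585 for CXCR4 and 1.37 for VEGFR2. Leaving out each library, VCAM1 ranged from 0.794 to 1.23. The cause of these shifts was not tested.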
